A study of Mus musculus with 6 samples.

Results

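Natural killer (NK) cell and cytotoxic granule genes were examined in macrophages and leukemia cells of mice with and without iron overload. The group was chosen by name and holds 10 genes of the 54532 in the deposited tables: the receptors Ncr1, Klrb1c, Klrk1 and Klrd1, the granule genes Gzma, Gzmb, Prf1 and Nkg7, and the transcription factors Eomes and Tbx21. The series has 6 RNA-seq libraries, 1 for each condition, from C57BL/6 mice aged 6 to 8 weeks. WT mice were normal animals given PBS, and WT/FE mice were normal animals given iron dextran. MA9 mice had received GFP+ acute myeloid leukemia (AML) cells that carry the MLL-AF9 fusion from a retrovirus and were given PBS, and MA9/FE mice were leukemic animals given iron dextran. The iron was injected into the peritoneum, 0.2 mL at 25 mg/mL every other day for 6 injections, starting 1 week after transplantation in leukemic mice, and controls received the same volume of PBS. Macrophages were labelled as spleen cells for all 4 kinds of mice, while the study's methods name bone marrow (BM) for the sorted macrophages, and this could not be settled here. Leukemia cells were labelled as BM cells of MA9 and MA9/FE mice. The methods gate BM macrophages as GFP- cells that are Gr-1 low, F4/80+, CD115 intermediate and of low to intermediate side scatter. That gate has no antibody against an NK cell receptor. Whether it was used for the cells labelled as spleen was not given in the sources used here. Whether a library came from 1 mouse or from pooled mice was not given in the sources used here.

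NK cells are innate lymphocytes that kill infected or transformed cells. Activating and inhibitory receptors on their surface read the target cell, and killing follows when perforin opens the target membrane and granzymes, proteases stored in the same granules, enter it. Cytotoxic T cells use the same granules, so granzyme, perforin and Nkg7 transcripts do not mark NK cells alone. Eomes and T-bet, the product of Tbx21, are the T-box transcription factors that NK cell development depends on, and NK cells are studied in AML as effectors against leukemia cells.

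The promoters of 4 genes are shown because the receptor gene Ncr1 and the granule genes Gzmb and Prf1 followed one pattern between macrophages and leukemia cells, and Nkg7 followed another. RefSeq entries on GRCm38.p6 were matched for 9 of the 10 genes, all but Klrd1. Each sequence below is the 250 bases before the start of the RefSeq entry, written 5′ to 3′ on the strand of the gene. Ncr1 has 2 entries and the second is shown, at chr7:4337474-4337723 (+). Gzmb is at chr14:56262335-56262584 (-), Prf1 at chr10:61297586-61297835 (+) and Nkg7 at chr7:43436888-43437137 (+). Capitals mark AGGTGT, the core read by T-box factors, and TGTGGT, the core read by RUNX factors, or their reverse complements ACACCT and ACCACA.
Ncr1: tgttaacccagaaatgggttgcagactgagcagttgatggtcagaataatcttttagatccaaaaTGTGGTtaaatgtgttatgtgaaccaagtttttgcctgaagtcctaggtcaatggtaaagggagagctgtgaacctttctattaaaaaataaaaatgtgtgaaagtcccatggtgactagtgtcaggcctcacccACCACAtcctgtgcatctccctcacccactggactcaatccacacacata
Gzmb: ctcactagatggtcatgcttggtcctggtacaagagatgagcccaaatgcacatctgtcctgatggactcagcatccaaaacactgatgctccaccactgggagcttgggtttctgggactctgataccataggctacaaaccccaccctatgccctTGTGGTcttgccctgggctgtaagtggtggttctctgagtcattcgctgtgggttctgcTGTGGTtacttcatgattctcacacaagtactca
Prf1: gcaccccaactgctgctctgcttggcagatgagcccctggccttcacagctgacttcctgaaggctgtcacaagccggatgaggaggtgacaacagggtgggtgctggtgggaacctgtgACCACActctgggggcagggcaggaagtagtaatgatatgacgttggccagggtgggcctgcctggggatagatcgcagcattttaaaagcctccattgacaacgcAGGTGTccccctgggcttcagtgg
Nkg7: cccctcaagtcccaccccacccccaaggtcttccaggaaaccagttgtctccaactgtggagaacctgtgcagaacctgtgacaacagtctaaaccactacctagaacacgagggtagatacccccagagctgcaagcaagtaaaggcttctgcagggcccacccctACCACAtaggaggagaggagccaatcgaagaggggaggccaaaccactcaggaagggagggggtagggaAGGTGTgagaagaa
The RUNX core was present in 7 of the 9 matched promoters, against 14% of 32851 mouse promoters of this length. AGGTGT was present in 3 of the 9, those of Gzma, Prf1 and Nkg7, against 11.8% of all promoters. GAGGAA, a core read by the myeloid factor PU.1, or its complement TTCCTC was found in 1 of the 9, that of Klrb1c, against 23.3% of all promoters. The window of Nkg7 thus holds a T-box and a RUNX core like that of Prf1, and no GAGGAA. Its RefSeq start lies inside the gene span given below, which begins at chr7:43437073, and its AGGTGT lies past that point. The whole Klrb1c window, chr6:128788642-128788891 (-), also lies inside the span of its gene, chr6:128778485-128789215. These are matches of letters in a window, and no binding was measured.

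Library depth ranged from 16085348 to 19518360 reads, as recovered from the deposited FPKM values (fragments per kilobase of exon, scaled to depth). All 10 genes gave whole reads in all 6 libraries. There was 1 library for each condition, so no difference between 2 libraries has a replicate check, and the 95% intervals below cover counting error only. The macrophage libraries held the macrophage genes Adgre1, which encodes F4/80, at 32.2 to 54.5 FPKM and Csf1r, which encodes CD115, at 56.6 to 110.8 FPKM. They also held B cell transcripts at higher summed levels, with 12 B cell markers at 1447 to 2563 FPKM against 549 to 1214 FPKM for 18 macrophage markers. The macrophage markers were higher in both iron libraries, at 968 FPKM in WT/FE and 1214 FPKM in MA9/FE, than in WT at 573 and MA9 at 549. Leukemia cell libraries held 10 MLL-AF9 target genes at 266.5 to 280.9 FPKM, above the 26.6 to 34.4 FPKM of macrophages, and neutrophil markers at 6097 to 7354 FPKM.

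**Figure D1:**
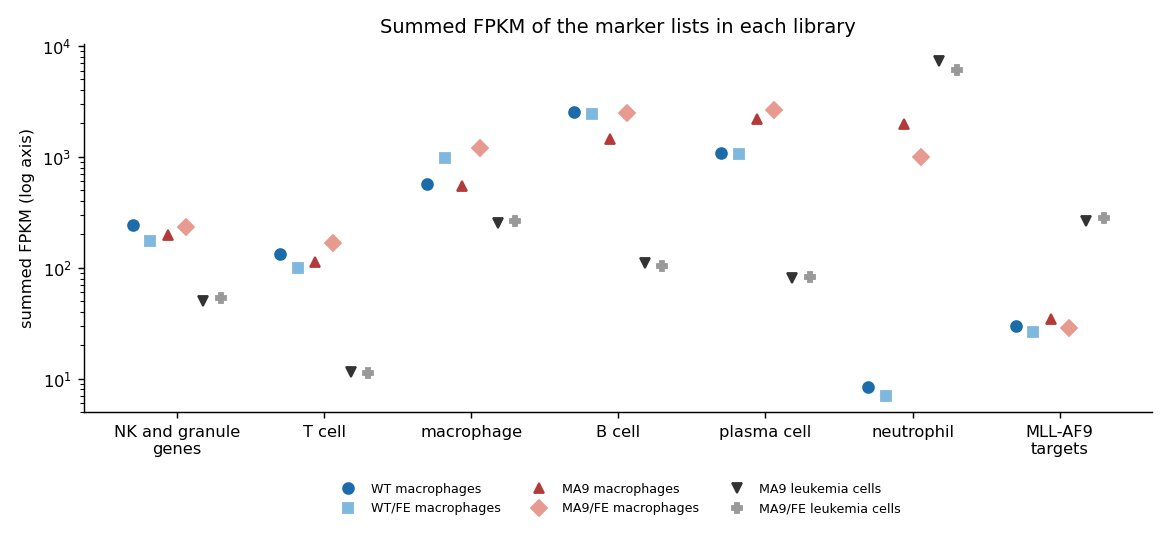
Summed FPKM (log axis) of the 10 NK and granule genes and of marker lists, 1 point for each of the 6 libraries. The NK and granule genes summed to 174.9 to 243.8 FPKM in macrophages and 50.3 to 53.2 FPKM in leukemia cells, and the B cell markers stood above the macrophage markers in all 4 macrophage libraries.

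The 10 genes took 0.0380% of reads in WT macrophages and 0.0285% in WT/FE, and 0.0303% in MA9 and 0.0345% in MA9/FE libraries. The share in leukemia cells was 0.00509% with PBS and 0.00528% with iron. Among the 4 macrophage libraries it was highest in normal mice given PBS and lowest in normal mice given iron. In bulk libraries, fewer NK cells and less RNA per NK cell cannot be told apart. T cell markers, with which several of these genes can be shared, were present as well: the 15 genes were all detected in macrophages and summed to 133.7 FPKM in WT and 100.2 in WT/FE, and to 112.7 in MA9 and 165.9 in MA9/FE libraries. Both lists thus had their lowest sum in WT/FE, and their parts in each other's levels were not tested. Of the defining T cell genes, Cd3e, a chain of the T cell receptor complex, had 56 reads in WT and 40 in WT/FE macrophages and 61 and 68 reads in their MA9 and MA9/FE counterparts. Per length this was 0.584 to 1.04 FPKM, below each of the 10 genes. Other T cell genes stood higher, with a median over the 15 of 2.67 to 6.49 FPKM in macrophages. Cd8a, the CD8 chain that some dendritic cells also make, had 989 to 1444 reads, or 16.2 to 20.8 FPKM, above 7 of the 10 genes in each macrophage library.

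The 4 receptors were all highest in WT macrophages. Ncr1 (ENSMUSG00000062524, chr7:4337724-4345164, +), which encodes the activating receptor NKp46 and is the most NK restricted of the 4, stood at 18.4 FPKM (553 reads) in WT and 10.98 (284 reads) in WT/FE macrophages, and at 12.0 (313 reads) in MA9 and 10.1 (250 reads) in MA9/FE ones. The WT library was alone at the top and the other 3 were close together. Klrb1c (ENSMUSG00000030325, chr6:128778485-128789215, -), the gene of NK1.1, by which NK cells of this strain are stained, stood at 8.24, 6.51, 4.59 and 5.46 FPKM in the same order, so that both libraries of normal mice were above both of leukemic mice. It overlaps a gene model on the same strand, Gm44511, and reads could be shared between them.

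Klrk1 (ENSMUSG00000030149, chr6:129610323-129623864, -) encodes NKG2D, the activating receptor for stress ligands. It was at 7.57 FPKM in WT and 5.78 in WT/FE, then at 5.36 in MA9 and 5.53 in MA9/FE libraries, and varied least of the receptors, 1.41-fold from lowest to highest. Klrd1 (ENSMUSG00000030165, chr6:129591782-129598775, +) encodes CD94, the partner of NKG2 receptors other than NKG2D. It was at 57.0, 50.1, 33.3 and 42.7 FPKM, again in the order WT, WT/FE, MA9, MA9/FE, with both libraries of leukemic mice below both of normal mice. Klrb1c, Klrd1 and Klrk1 lie in the NK gene complex on chromosome 6.

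**Figure D2:**
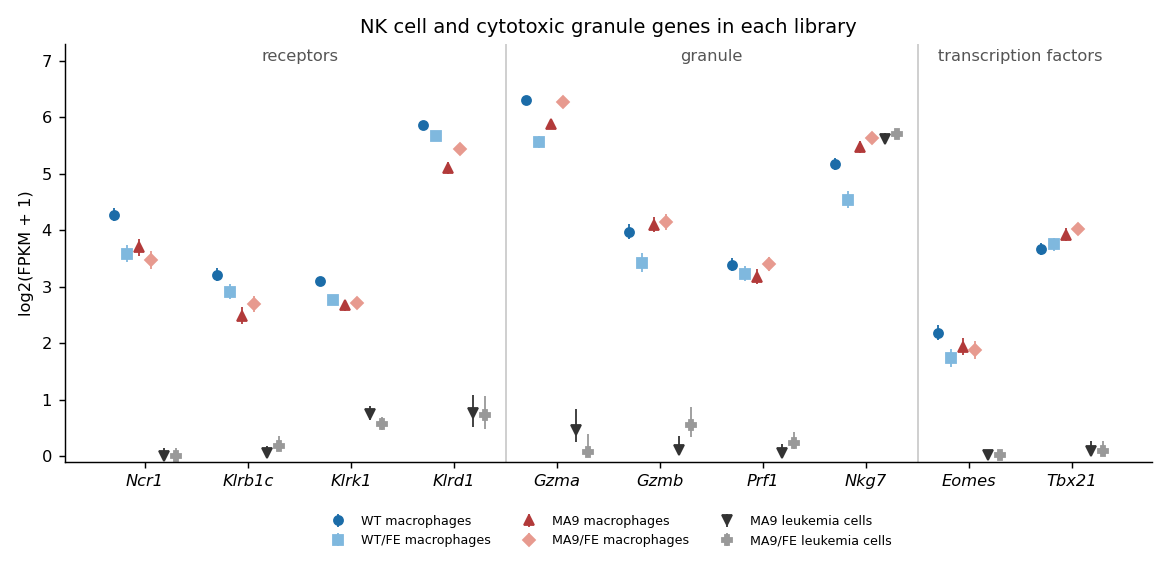
log2(FPKM + 1) of the 10 genes in each of the 6 libraries, with bars for 95% counting intervals. The receptors are highest in WT macrophages, Gzmb, Prf1, Nkg7 and Tbx21 are highest in MA9/FE macrophages, and Nkg7 is the only one of the 10 that leukemia cells hold at the level of macrophages.

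The granule genes had another order of libraries. Gzma (ENSMUSG00000023132, chr13:113093825-113100981, -), encoding granzyme A, was the most abundant of the 10 per length in 3 of the macrophage libraries, at 77.9 FPKM in WT and 46.3 in WT/FE, and at 58.2 in MA9 and 76.1 in MA9/FE. WT and MA9/FE were the high libraries and WT/FE was low. Gzmb (ENSMUSG00000015437, chr14:56258838-56262260, -) encodes granzyme B, which cleaves caspase substrates in the target. It was at 14.7, 9.74, 16.1 and 16.7 FPKM, with WT/FE alone below the other 3. Prf1 (ENSMUSG00000037202, chr10:61297833-61304680, +), encoding perforin, had the narrowest range of the 10, at 9.46, 8.39, 8.06 and 9.55 FPKM, 1.19-fold from lowest to highest. Nkg7 (ENSMUSG00000004612, chr7:43437073-43438249, +), a granule membrane protein needed for efficient release, had the widest, at 35.2, 22.3, 43.7 and 48.4 FPKM, 2.17-fold, with both leukemic libraries above both normal ones.

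The 2 T-box factors differed from each other. Eomes (ENSMUSG00000032446, chr9:118478212-118486132, +) was the lowest of the 10, at 3.54 FPKM in WT and 2.32 in WT/FE, and at 2.82 in MA9 and 2.66 in MA9/FE. It overlaps an antisense gene model, Gm33460, and the use of strand in counting was not given in the sources used here. Tbx21 (ENSMUSG00000001444, chr11:97098071-97115331, -) was at 11.7, 12.4, 14.2 and 15.2 FPKM, lowest in WT and highest in MA9/FE, the reverse of Ncr1. Over all 10 genes, 6 were highest in WT and 4 in MA9/FE, and 4 were lowest in WT/FE and 4 in MA9.

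In normal mice, iron dextran went with lower NK and granule transcripts in the macrophage libraries. The ratio of WT/FE to WT was 0.592 (0.542 to 0.646) for Gzma, 0.594 (0.513 to 0.687) for Ncr1, 0.630 (0.551 to 0.720) for Nkg7, 0.653 (0.535 to 0.794) for Eomes and 0.658 (0.558 to 0.774) for Gzmb. Smaller differences were seen for Klrk1 at 0.759, Klrb1c at 0.787, Klrd1 at 0.875 and Prf1 at 0.883. Tbx21 was alone on the other side, at 1.06 (0.938 to 1.19). In all, 9 of 10 genes were below 0 on the log2(scaled FPKM + 1) scale, against 53.3% of the 16754 genes tested, and 8 had a counting interval wholly below 1, against 18.9%. None of the 10 reached a fold of 2, which 1.27% of genes did. The median over the 10 was -0.40 on the log2 scale, beside -0.01 over all genes. Macrophage markers took 0.310% of reads in WT/FE and 0.169% in WT, and their part in the difference was not tested.

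In mice given PBS, leukemia went with lower receptor transcripts and with granule transcripts on both sides. The ratio of MA9 to WT macrophages was 0.562 (0.478 to 0.659) for Klrb1c, 0.589 (0.538 to 0.645) for Klrd1, 0.656 (0.569 to 0.755) for Ncr1 and 0.715 (0.647 to 0.788) for Klrk1, so that the 4 receptors were all lower. Gzma at 0.754, Eomes at 0.803 and Prf1 at 0.860 were also lower. Nkg7 at 1.25 (1.12 to 1.4) and Tbx21 at 1.22 (1.09 to 1.38) were higher, and Gzmb was at 1.11 (0.960 to 1.27). No gene of the 10 reached a fold of 2, against 4.70% of 16926 genes. Counting intervals were below 1 for 7 genes and above 1 for 2, against 25.7% and 28.8% of all genes. The median over the 10 was -0.32, beside -0.003 over all genes. Neutrophil markers took 0.2% of reads in MA9 macrophages and 0.00131% in WT, and plasma cell markers 0.510% and 0.253%, and their part was not tested.

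**Figure D3:**
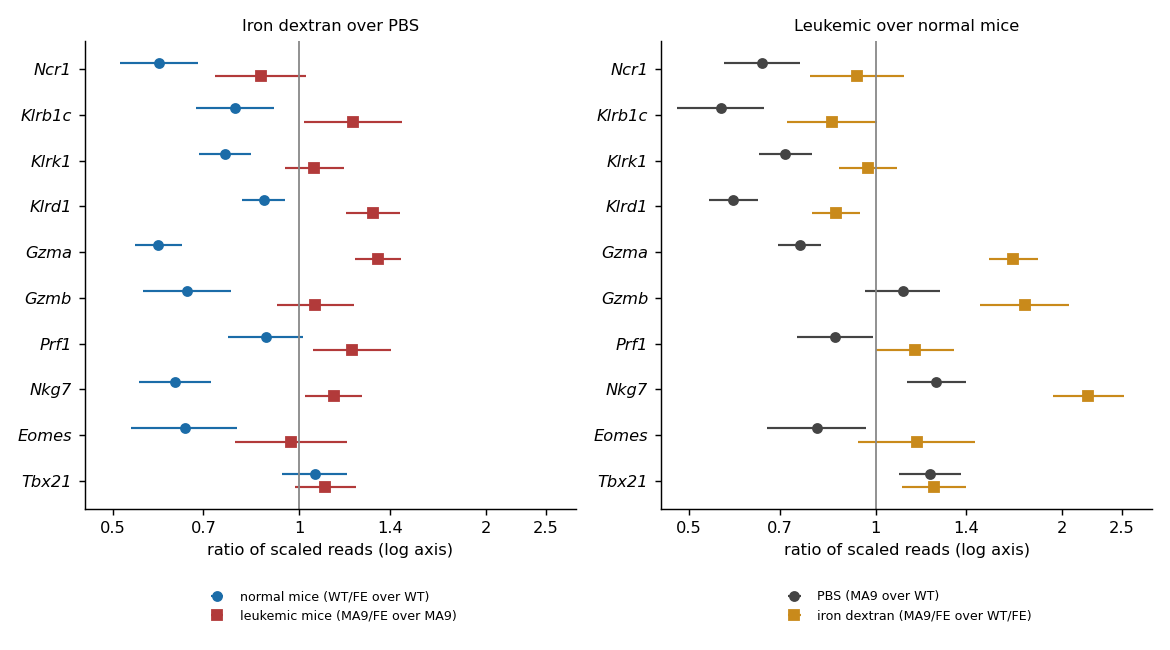
Ratios of scaled reads for the 10 genes (log axis) with 95% counting intervals, left for iron dextran over PBS in normal and in leukemic mice, right for leukemic over normal mice given PBS or iron. On the left the WT/FE ratios lie below the MA9/FE ratios for all 10 genes, and on the right the granule genes lie to the right of the receptors when mice were given iron.

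In mice given iron, the granule genes were higher in leukemic than in normal mice and the receptors were near even. Nkg7 was at 2.21 (1.94 to 2.52), Gzmb at 1.74 (1.48 to 2.06), Gzma at 1.67 (1.52 to 1.83) and Prf1 at 1.16 (1.0 to 1.34) in MA9/FE over WT/FE macrophages. Among receptors, Klrk1 was at 0.972, Ncr1 at 0.933, Klrd1 at 0.863 and Klrb1c at 0.851, with only the interval of Klrd1 below 1. Tbx21 was at 1.24 and Eomes at 1.16 (0.936 to 1.45). The fold of 2 was reached by 1 of the 10, Nkg7, which was higher by 1.11 on the log2 scale, against 2.93% of 16571 genes higher by that much and 4.57% in either direction. Nkg7 has the shortest exons of the 10, 914 bases in sum, and its difference was 0.97 once a trend of the differences on exon length was removed, so that the fold of 2 was then reached by 0 of the 10. Counting intervals were above 1 for 5 genes and below 1 for 1, against 32.3% and 27.8% of all genes, and the median over the 10 was 0.17, beside 0.01 over all genes. T cell transcripts also stood higher in MA9/FE, with Cd3g at 175 reads against 46 in WT/FE and Cd3e at 68 against 40. Neutrophil markers took 0.0992% of reads in MA9/FE and 0.00117% in WT/FE macrophages. The part of either in these differences was not tested.

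Within leukemic mice, 8 of the 10 genes were above 0 with iron dextran on the log2(scaled FPKM + 1) scale, against 51.8% of all genes tested, and Ncr1 and Eomes were below it. The ratio of MA9/FE to MA9 macrophages was 1.34 (1.23 to 1.46) for Gzma, 1.31 (1.19 to 1.45) for Klrd1, 1.22 (1.02 to 1.46) for Klrb1c, 1.22 (1.05 to 1.41) for Prf1 and 1.14 (1.02 to 1.26) for Nkg7. Tbx21 at 1.10, Gzmb at 1.06, Klrk1 at 1.06, Eomes at 0.969 and Ncr1 at 0.866 had intervals that held 1. None of the 10 reached a fold of 2, against 2.46% of 16512 genes, and 5 had a counting interval above 1 and 0 below, against 29.3% and 25.9%. The median over the 10 was 0.16, beside 0.01 over all genes. Each of these 4 comparisons shares its libraries with 2 of the others, so their values are not independent.

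The iron ratio was larger in leukemic than in normal mice for all 10 genes, against 52.1% of the 15810 genes tested in both comparisons. The MA9 ratio divided by the WT ratio was 2.26 (2.01 to 2.55) for Gzma, 1.80 (1.52 to 2.14) for Nkg7, 1.61 (1.3 to 2.0) for Gzmb and 1.55 (1.24 to 1.94) for Klrb1c, and it was 1.04 (0.883 to 1.23) for Tbx21. With TMM scaling, the interval of 4 of the 10, Gzma, Nkg7, Klrb1c and Klrd1, lay below 1 in normal and above 1 in leukemic mice, against 9.60% of all genes. With 1 library in each condition, this difference has no test.

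A limma fit over the 4 macrophage libraries, with a term for iron and a term for leukemia and 1 residual degree of freedom, called none of the 10 genes. For iron, the adjusted p was 0.9999 for all 10, and the largest difference was that of Ncr1, -0.44 ± 0.20 (SE) on the log2 scale. The fit called 0.0246% of 16268 genes for iron. For leukemia, Nkg7 had the largest difference, 0.70 ± 0.23 (SE, adjusted p = 0.179), followed by Klrd1 at -0.49 ± 0.22 (adjusted p = 0.315), Klrb1c at -0.47 ± 0.22 and Gzmb at 0.43 ± 0.21, and 3.07% of all genes were called. At an unadjusted limma p under 0.05, Nkg7 was the only one of the 10 for leukemia, against 16.1% of all genes, and none passed for iron, against 4.33%. These counts depend on the settings: over 6 alternative settings Ncr1 passed for iron in 5, Klrd1 for leukemia in 5, Gzmb in 2 and Klrb1c in 1, and Nkg7 passed for leukemia in all 6. The fit takes the difference between the iron effects of normal and leukemic mice as its error, and Gzma had the widest SE of the 10, 0.29.

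The balance of granule to receptor reads inside a library needs no scaling between libraries. The 4 granule genes gave 0.867 reads (0.825 to 0.910) for each read of the 4 receptors in WT macrophages and 0.723 (0.679 to 0.770) in WT/FE. In MA9 and MA9/FE macrophages they gave 1.26 (1.19 to 1.34) and 1.34 (1.27 to 1.42). Both leukemic libraries were thus above both normal ones, and iron went with a lower ratio in normal mice and a slightly higher one in leukemic mice. From WT to MA9 the receptors went from 0.0180% to 0.0113% of reads and the granule genes from 0.0156% to 0.0143%, so both were lower. From WT/FE to MA9/FE the receptors went from 0.0142% to 0.0126% and the granule genes rose from 0.0103% to 0.0170%. Leukemia cells, whose granule reads were mostly Nkg7, gave 7.60 with PBS and 10.3 with iron. Neutrophil markers took 0.2% and 0.0992% of reads in MA9 and MA9/FE macrophages, against 0.00131% and 0.00117% in WT and WT/FE. The part of myeloid transcripts in this balance was not tested. The T-box genes gave 0.243, 0.286, 0.415 and 0.389 reads for each receptor read in the same order.

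Set against Ncr1 alone, Nkg7 and Gzmb had higher ratios in both leukemic libraries than in both normal ones, with counting intervals that did not overlap. Nkg7 gave 1.14 reads for each Ncr1 read in WT and 1.2 in WT/FE, and then 2.17 in MA9 and 2.85 in MA9/FE. Gzmb gave 0.747, 0.828, 1.26 and 1.54. Of the other granule genes, Gzma gave 2.77, 2.76, 3.18 and 4.93, and its MA9 interval overlapped those of both normal libraries. Prf1 gave 0.863, 1.28, 1.13 and 1.59, with MA9 below WT/FE. Tbx21 gave 1.03 in WT, against 1.83 in WT/FE macrophages and 1.92 and 2.44 in their MA9 and MA9/FE counterparts, so that here WT stood apart and the interval of WT/FE overlapped that of MA9. Among the other receptors, Klrk1 gave 1.92, 2.45, 2.09 and 2.56 reads, and Klrb1c 0.861, 1.14, 0.738 and 1.04. Klrd1 gave 2.58, 3.80, 2.32 and 3.52, higher in both iron libraries than in both PBS ones, with counting intervals that did not overlap. Cd3e gave 0.101, 0.141, 0.195 and 0.272 reads for each Ncr1 read, in the same order of libraries as Nkg7, and the part of T cell transcripts in the granule ratios was not tested.

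**Figure D4:**
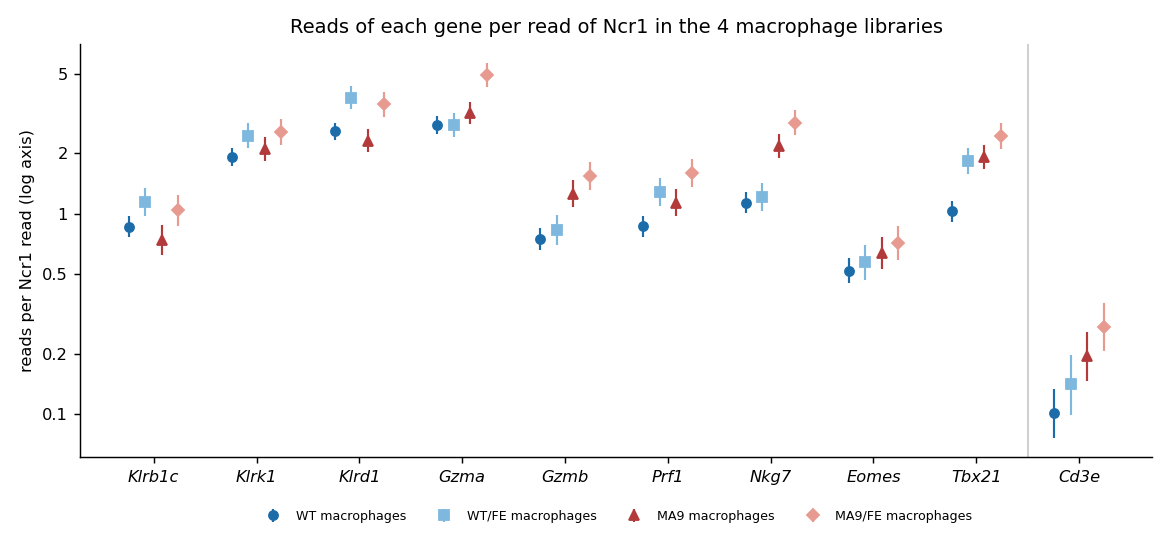
Reads of each gene for each read of Ncr1 (log axis) in the 4 macrophage libraries, with 95% counting intervals and with the T cell gene Cd3e at the right. Gzmb and Nkg7 are higher in both leukemic libraries than in both normal ones, with intervals that do not overlap. The MA9 interval of Gzma overlaps those of both normal libraries, and Prf1, Klrb1c and Klrk1 are not higher in both leukemic libraries.

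Leukemia cells held almost no transcript of these genes except Nkg7. Ncr1 had 0 reads in both leukemia cell libraries, against 313 and 250 in MA9 and MA9/FE macrophages. With a floor of 3 reads in place of 0 it was 114-fold and 94.3-fold lower. The 95% counting bounds put it at least 92.1-fold and 76.2-fold lower. Eomes had 1 read in each leukemia cell library, Tbx21 had 3 in each, and Prf1 had 2 and 8. Gzma had 7 and 1, Gzmb had 2 and 12, and Klrb1c had 2 and 7. Those counts stand against 178 reads or more in macrophages of leukemic mice of the same treatment. Klrd1 had 16 and 15 reads, and Klrk1 kept the highest count of the rest, 89 and 61 reads, or 0.682 and 0.476 FPKM, at 0.124 (0.0985 to 0.155) and 0.0843 (0.0638 to 0.110) of the macrophage level.

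Nkg7 was at 48.3 FPKM (802 reads) in MA9 and 51.2 FPKM (835 reads) in MA9/FE leukemia cells, beside 43.7 and 48.4 FPKM in the macrophages. Its ratio of leukemia cells to macrophages was 1.08 (0.975 to 1.2) with PBS and 1.04 (0.936 to 1.15) with iron. These levels placed it above 95.01% and 95.36% of the genes with a read in leukemia cells. The other 9 of the 10 were lower by a fold of 2 or more in leukemia cells of both treatments, against 12.6% of 17044 genes with PBS and 13.2% of 16842 with iron. The medians over the 10 were -3.42 and -3.33, beside -0.01 and -0.03 over all genes. Cell type and labelled tissue differ together between these libraries and cannot be told apart.

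**Figure D5:**
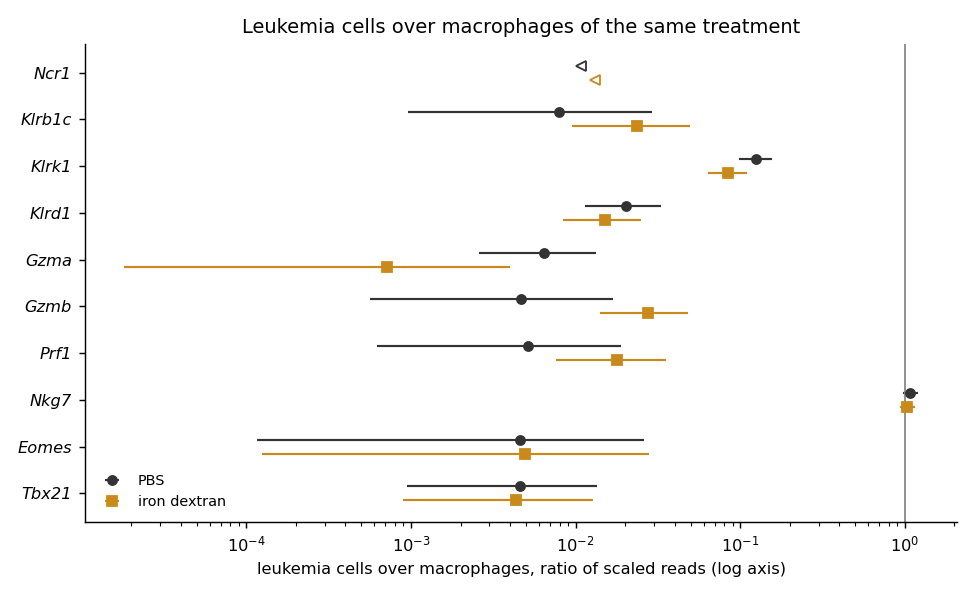
Ratio of scaled reads in leukemia cells over macrophages of the same treatment (log axis) for the 10 genes, with 95% counting intervals, and with open triangles for Ncr1 at the upper bound that 0 reads allow. Nkg7 lies at 1.08 and 1.04, and the other 9 lie at or below 0.124.

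Between leukemia cells with iron and with PBS, most of these genes had too few reads for a difference to be seen. Only 4 of the 10 genes had 10 reads in either library: Nkg7 had 835 reads with iron and 802 with PBS, a ratio of 1.06 (0.960 to 1.17), and Klrd1 had 15 and 16. Klrk1 was at 0.697 (0.495 to 0.976). Gzmb had 12 reads against 2, a ratio of 6.10 with an interval from 1.36 to 56.1, and its difference of 0.45 on the log2(scaled FPKM + 1) scale stayed under the fold of 2. None of the 4 was called, against 0.863% of 15415 genes. Counting intervals were above 1 for 1 gene and below 1 for 1, against 15.6% and 14.4%.

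The wider set of NK receptors, 27 genes, stood mostly lower, like the 4 receptors, in normal mice given iron and in leukemic mice given PBS. In WT/FE over WT, 25 of 27 were below 0, against 53.3% of all genes, and 18 had a counting interval below 1, against 18.9%, with a median of -0.32. In MA9 over WT, 22 were below 0, against 50.5% of all genes, and 19 had an interval below 1, against 25.7%, with a median of -0.40. None of the 27 reached a fold of 2 in either, against 1.27% and 4.70% of all genes. In MA9/FE over MA9 the 27 were on both sides, with 7 intervals below 1 and 4 above, against 25.9% and 29.3% of all genes. Their median there was 0.02 and none reached a fold of 2, against 2.46% of all genes. Their summed share of reads was 0.0751% in MA9 and 0.0643% in MA9/FE macrophages. In MA9/FE over WT/FE the median was 0.02 and 2 reached the fold, against 4.57% of all genes: Klrg1, an inhibitory receptor of mature effector cells, higher at 4.57 against 1.81 FPKM, and Klrc3, an NKG2 family gene, lower at 1.01 against 4.37 FPKM on 12 and 54 reads. Many Klra and Klrc genes are near copies of each other, and how their shared reads were divided is uncertain. The most abundant of the 27 in macrophages were Cd7 at 70.1 to 106.1 FPKM, Klri1 at 55.1 to 97.8 and Slamf7 at 37.8 to 54.0, and Slamf7 and Cd7 are also made by other lymphocytes and by dendritic cells.

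Adaptors and release genes, which myeloid cells also use, were abundant in both cell types. Tyrobp, the adaptor DAP12, was at 292.9 to 387.3 FPKM in macrophages and at 667.3 and 617.3 FPKM in leukemia cells with PBS and with iron, and Fcer1g, the Fc receptor gamma chain, was at 171.3 to 231.6 FPKM and at 266.5 and 260.4 FPKM. None of the 9 adaptors tested reached a fold of 2 in any comparison among macrophages, against 1.27% to 4.70% of all genes. Of 13 genes of granule content and release tested among macrophages, 1 reached it, in MA9/FE over WT/FE, where 4.57% of all genes did. It was Gzmk, granzyme K, at 2.51 FPKM in MA9/FE against 0.514 in WT/FE on 56 and 12 reads. Rab27a, a GTPase that docks granules, was at 67.4 and 63.5 FPKM in leukemia cells, and Lamp1, a membrane protein of lysosomes and granules, at 246.9 and 242.2.

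Of the cytokines and death ligands that NK cells release, Ccl4 and Xcl1 reached a fold of 2 among macrophages. That was 1 of 9 tested in MA9 over WT, against 4.70% of all genes, and 2 of 8 in MA9/FE over WT/FE, against 4.57%. Ccl4, a chemokine of NK cells and of activated macrophages, was at 25.7 FPKM in WT and 18.1 in WT/FE, against 69.6 in MA9 and 43.0 in MA9/FE, so that both leukemic libraries were above both normal ones, and it passed the fold of 2 in MA9 over WT, at 1.42 on the log2 scale, and in MA9/FE over WT/FE, at 1.22. Xcl1, a chemokine made by NK and CD8+ T cells that attracts dendritic cells, stood at 17.8 FPKM in MA9/FE against 6.03 in WT/FE, a log2 difference of 1.44. All 9 genes of the list were below 0 in WT/FE over WT, against 53.3% of all genes, 6 of them with an interval below 1, against 18.9%, and none reached a fold of 2, against 1.27%. In MA9/FE over MA9, 7 of the 8 tested were below 0, against 48.2% of all genes, 5 with an interval below 1 and 0 above, against 25.9% and 29.3%, and none reached a fold of 2, against 2.46%. Ccl5 was the highest of the list in macrophages, at 151.9 to 211.3 FPKM, and had 21 and 3 reads in leukemia cells.

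Of 13 further NK transcription factors, none reached a fold of 2 among macrophages, against 1.27% to 4.70% of all genes in those comparisons. Id2 restrains E proteins during innate lymphoid development. In macrophages it was at 95.4 FPKM in WT and 96.6 in WT/FE, and at 69.1 in MA9 and 90.3 in MA9/FE. Runx3, the RUNX factor of cytotoxic lymphocytes, was at similar levels in both cell types, at 18.3 to 26.7 FPKM in macrophages and at 23.7 and 22.7 FPKM in leukemia cells.

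The ligands that NK receptors read were present on both sides. Of 18 ligand genes listed, 14 were matched in the tables. The class I genes B2m, H2-D1 and H2-K1, whose products inhibitory receptors bind, were at 1928 to 2995, 919 to 1169 and 1152 to 1490 FPKM in macrophages, and B2m was at 1232 and 992 FPKM in leukemia cells with PBS and with iron. Among ligands of NKG2D, Ulbp1 was at 12.4 and 13.2 FPKM in leukemia cells and at 3.76 and 3.98 FPKM in macrophages of normal mice with PBS and with iron and 8.33 and 4.34 FPKM in those of leukemic mice, and H60b was lower in MA9/FE than in WT/FE macrophages, at 1.64 against 4.56 FPKM, a log2 difference of -1.06. H60b was the 1 of 12 ligands tested in MA9/FE over WT/FE that reached a fold of 2, against 4.57% of all genes. No ligand reached it between iron and PBS, against 1.27% and 2.46% of all genes in macrophages of normal and leukemic mice and 0.863% in leukemia cells. Of the cytokines that keep or activate NK cells, Il18 was higher in MA9/FE than in MA9 macrophages, at 28.9 against 12.4 FPKM or 1.2 on the log2 scale, and Il12b was higher in MA9 than in WT, at 10.2 against 2.63 FPKM or 1.64. Each was 1 of 5 tested in its comparison, where 2.46% and 4.70% of all genes reached a fold of 2. Il15, on which NK cell survival depends, was between 4.63 and 5.29 FPKM in all 4 macrophage libraries.

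The genes most like the group over the 6 libraries were named by the root mean square difference of their centred log2(FPKM + 1) profile from the mean profile of the 10, among 5342 genes with 50 reads in some library and a range of at least 1. They were Ifit1bl1 at 0.117, Lck, a kinase of T and NK cells, at 0.128, Nfkbie at 0.138, Gpr4 at 0.139 and Rps4l at 0.142. Lck stood at 16.1 and 11.9 FPKM in WT and WT/FE macrophages, at 13.4 and 18.7 FPKM in MA9 and MA9/FE ones, and at 0.696 and 0.841 FPKM in leukemia cells.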

How the data were processed

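RNA-seq of sorted mouse cells gave 6 tables, with 1 library for each condition. Per the labels, reads were aligned with Bowtie2 2.2.5 to mm10 and quantified with RSEM. The authors deposited FPKM values (fragments per kilobase of exon, scaled to depth) for 54532 genes, and the annotation was not given in the sources used here. Multiplying FPKM by the union exon length of GENCODE genes on GRCm38 (54495 genes matched) gave whole reads, within 0.05 reads, for 96.8% to 97.0% of values, and these reads gave the depth and the intervals. The gene names, coordinates and lengths are those of that annotation.

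The 10 genes were given by name, and they and the other gene lists were chosen with earlier results of these data known. FPKM were scaled by TMM factors and compared as log2(FPKM + 1), so differences of low genes are understated. A gene was tested in a pair with 10 reads in at least 1 library and called at a fold of 2, with no p-value, as each condition has 1 library. Ratios of reads carry exact conditional binomial 95% intervals and levels and shares Wilson intervals, which cover counting error only. A floor of 3 reads stood in for 0. limma 3.58.1 (R 4.3.3; log2(FPKM + 1) with 10 reads in at least 2 libraries, Benjamini-Hochberg adjustment, called at 0.05) fitted iron and leukemia terms over the 4 macrophage libraries. Python 3.11.15, pandas 2.3.3 and scipy 1.17.1 were used, and the fold and limma steps were tested on simulated data. Named beside the 10 genes were members of each wider list past the fold, at most 4 for each list, the 3 with the highest FPKM, and 5 genes by likeness of profile. Ulbp1, named outside that rule, was chosen after its values were seen. Alternatives were other scalings, a pseudocount of 0.1, no minimum of reads or 50 reads, and, chosen after seeing the data, removal of a lowess trend on exon length.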

Additional observations from a re-analysis of the deposited data

Results flagged for a closer look

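In macrophages, 4 of the 10 genes had a counting interval of iron dextran over PBS below 1 in normal and above 1 in leukemic mice. So did 9.60% of the 15810 genes tested in both. Klrb1c was at 0.7873 in WT/FE over WT and at 1.22 in MA9/FE over MA9, and Klrd1 was at 0.8752 and 1.314. Gzma was at 0.5919 and 1.34, and Nkg7 at 0.6299 and 1.136. Each counting interval of these 4 genes, with TMM scaling, left out 1. Klrk1, Gzmb and Prf1 also had ratios below 1 in normal and above 1 in leukemic mice, but with an interval that held 1 in normal or in leukemic mice. The directions held with FPKM as deposited, with median-of-ratios size factors and with TMM factors computed without hemoglobin and immunoglobulin genes. The intervals were not recomputed with these scalings. In leukemic mice the lower bounds of Klrb1c and Nkg7 were only 1.018 and 1.022, and their ratios fell to 1.19 and 1.108 with FPKM as deposited. Those intervals need not leave out 1 then. The difference between normal and leukemic mice was not tested, since each condition has 1 library. Macrophage markers were at 573 and 968 FPKM in WT and WT/FE and at 549 and 1214 FPKM in MA9 and MA9/FE, and T cell markers at 133.7, 100.2, 112.7 and 165.9 FPKM in the same libraries, and their part was not tested.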

How the results depend on the processing

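Over 220 alternative values of the differences of single genes of the group, 218 stayed within their counting interval of the reported value and 2 did not, Klrd1 at -0.34 and Gzma at 0.59 in MA9/FE over WT/FE with the trend on exon length removed. That removal, chosen after seeing the data, also changed the sign of Klrk1 in MA9/FE over WT/FE (0.12 in place of -0.04) and of Gzmb in MA9/FE over MA9 (-0.03 in place of 0.08), and left 0 of the 10 called in MA9/FE over WT/FE, where Nkg7 had been called. No scaling changed a sign. With a pseudocount of 0.1, 1 gene of the group, Gzmb, was called between leukemia cells, and the count over all genes was 784 for WT/FE over WT (213 reported), 1980 for MA9 over WT (795), 2083 for MA9/FE over WT/FE (758), 1499 for MA9/FE over MA9 (406), 631 for leukemia cells with iron over PBS (133), and 5809 and 6498 for leukemia cells over macrophages with PBS and with iron (3407 and 3832). The medians of the group in the last 2 were then -5.65 and -5.04. Without a minimum of reads the count was 481 for WT/FE over WT, 731 for MA9/FE over MA9 and 375 for leukemia cells, and with a minimum of 50 reads it was 116, 234 and 60. In limma the iron term called 4 genes and the leukemia term 499. With FPKM as deposited they called 43 and 852, with median-of-ratios factors 43 and 871, with TMM factors without hemoglobin and immunoglobulin genes 61 and 995, and with a minimum of 50 reads 66 and 983. With a pseudocount of 0.1 the iron term called 11, and without a minimum of reads the terms called 0 and 1, with 916 and 2485 genes at an unadjusted p under 0.05. None of the 10 genes was called under any of these. Leaving hemoglobin and immunoglobulin reads out of the total put the share of the group at 0.0391%, 0.0294%, 0.0321% and 0.0372% in WT, WT/FE, MA9 and then MA9/FE macrophages.

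No paired analysis was possible because each condition has 1 library, and for the same reason the results without each library were not computed: dropping 1 from the limma fit leaves no residual degree of freedom. Counts below 20 reads in leukemia cells limit what can be said there of 8 of the 10 genes, and the macrophage libraries hold lymphocyte transcripts whose cells were not identified.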
